A study of Mus musculus with 10 samples.

Results

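Interleukin-1 signalling and the inflammasome were followed through 10 genes: Il1a, Il1b, Il1rn, Il1r1, Il18, Nlrp3, Pycard, Casp1, Casp4 and Gsdmd. They were picked by symbol from the 24421 different gene symbols in the count files, and all 10 passed the filter on low counts that left 18727 genes for testing. RNA seq had been run on cells isolated from the cortex of 9-month-old mice of 3 groups. WT had 3 libraries, APP/PS1 had 4, and APP/PS1+N-AS, the same transgenic mice after injections of N-AS, had 3. Each library pooled the RNA of 2 mice. APP/PS1 mice over-express human amyloid precursor protein with the Swedish mutation together with a mutant presenilin-1; the promoters of these transgenes are not given in the sources used here. N-AS, N-acetyl sphingosine, was given under the skin every day at 30 mg/kg for 8 weeks from 7 months of age, and the study describes its APP/PS1 comparison mice as given vehicle, which the labels do not mention.

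Interleukin-1 alpha and beta are cytokines that bind the receptor encoded by Il1r1 and start inflammatory gene expression, while Il1rn encodes a secreted antagonist that occupies the same receptor without signalling. Interleukin-1 beta and interleukin-18 are made as inactive precursors; the inflammasome, built from a sensor such as NLRP3, the adaptor ASC (encoded by Pycard) and caspase-1, cuts them into their active forms. Caspase-1 and the lipopolysaccharide-sensing caspase encoded by Casp4 (mouse caspase-11) also cut gasdermin D, the product of Gsdmd, which then forms pores in the cell membrane. In the brain, microglia are the best known source of interleukin-1 beta. Transcript levels say nothing of cleavage, so none of the values below measures an active cytokine or an assembled inflammasome.

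In the mm10 (GRCm38) build with GENCODE M21 annotation, Il1a (chr2:129299610-129309972, minus strand) and Il1b (chr2:129364570-129371139, minus strand) are neighbours with 54597 bases between them, and Il1rn lies apart on the same chromosome (chr2:24336853-24351494, plus strand). Casp1 (chr9:5298517-5307265) and Casp4 (chr9:5308828-5336783) are paralogs on the plus strand with 1562 bases between them, and Il18 lies on the same chromosome (chr9:50554827-50581840, plus strand). The others are Il1r1 (chr1:40225080-40317257, plus), Nlrp3 (chr11:59541568-59566956, plus), Pycard (chr7:127989708-127993867, minus) and Gsdmd (chr15:75862327-75867408, plus). Exons of Il1a, Il1b and Pycard overlap exons of the opposite-strand genes Gm14023, Il1bos and Gm45205. The library kit kept strand, but whether the counting used it is not stated, so reads of those overlaps cannot be assigned with certainty.

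The 250 bases before the annotated start, from RefSeq on GRCm38.p6, are printed for the members on which the results turn: both interleukin-1 agonists and Nlrp3 and Casp4, which were higher in APP/PS1, and the antagonist gene Il1rn, which was not. Windows were held for 9 of the 10 members, 14 windows in all because some genes have several starts; Gsdmd had no entry. Capitals mark matches, on either strand unless said otherwise, to 6 motifs: NF-κB (GGG, any 5 bases, CC), PU.1 (GAGGAA), the interferon-stimulated response element (GAAA, any 2 bases, GAAA), AP-1 (TGANTCA), C/EBP (TTGCNNAA) and the TATA box (TATAAA, gene strand only).
Il1a (chr2:129309973-129310222, minus strand): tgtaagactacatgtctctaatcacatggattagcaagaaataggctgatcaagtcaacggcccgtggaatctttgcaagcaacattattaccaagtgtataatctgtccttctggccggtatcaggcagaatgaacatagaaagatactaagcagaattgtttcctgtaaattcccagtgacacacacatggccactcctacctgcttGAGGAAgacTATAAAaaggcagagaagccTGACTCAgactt
Il1b (chr2:129371140-129371389, minus strand): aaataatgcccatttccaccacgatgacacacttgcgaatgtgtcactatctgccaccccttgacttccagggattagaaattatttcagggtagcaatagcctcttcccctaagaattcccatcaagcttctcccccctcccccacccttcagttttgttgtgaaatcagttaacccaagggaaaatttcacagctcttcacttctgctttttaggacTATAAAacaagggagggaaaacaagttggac
Nlrp3, first start (chr11:59541319-59541568, plus strand): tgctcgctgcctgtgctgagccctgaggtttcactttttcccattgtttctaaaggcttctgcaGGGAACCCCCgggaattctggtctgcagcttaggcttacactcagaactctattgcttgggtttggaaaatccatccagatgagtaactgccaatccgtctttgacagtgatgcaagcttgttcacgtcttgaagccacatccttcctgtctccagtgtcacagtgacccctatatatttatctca
Casp4, first start (chr9:5308599-5308848, plus strand): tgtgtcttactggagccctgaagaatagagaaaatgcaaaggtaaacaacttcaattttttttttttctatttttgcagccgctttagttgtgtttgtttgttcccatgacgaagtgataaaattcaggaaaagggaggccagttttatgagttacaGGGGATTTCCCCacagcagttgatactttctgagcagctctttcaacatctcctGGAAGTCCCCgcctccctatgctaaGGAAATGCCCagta
Il1rn, first start (chr2:24336610-24336859, plus strand): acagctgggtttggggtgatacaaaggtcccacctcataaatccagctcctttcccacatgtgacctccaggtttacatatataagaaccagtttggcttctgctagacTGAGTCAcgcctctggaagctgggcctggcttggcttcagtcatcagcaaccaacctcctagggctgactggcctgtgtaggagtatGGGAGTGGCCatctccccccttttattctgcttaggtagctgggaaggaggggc

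A TATA box stood in the windows of Il1a, 32 bases before the start, and Il1b, 31 bases before it, which makes 2 of 14 member windows beside 7.59% of all 32851 promoter windows. The loose NF-κB pattern matched 7 of 14 member windows and 45.8% of all windows, so it does not set the members apart. Casp4 held 3 separate runs of it, and neither Il1a nor Il1b held one in these bases. PU.1 matched 4 windows (23.3% of all), AP-1 matched 2 (6.75%), C/EBP matched 2 (9.56%) and the interferon element matched 0 (2.98%). A match is a description of letters, not a bound site, and a missing match says only that these letters are not in this window.

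The libraries held 8805804 to 19432075 reads counted on genes. All 14 microglial markers were detected in every library, but their summed level was 884 to 1284 CPM (read counts divided by the TMM-scaled library size) for the WT libraries, 2651 to 3353 CPM for APP/PS1 and 1671 to 2138 CPM for APP/PS1+N-AS, with no overlap between the groups. Neuronal markers summed to 1457 to 4899 CPM and oligodendrocyte markers to 1943 to 6965 CPM, so the preparations held RNA of other brain cells too. All 8 oligodendrocyte markers were lower in APP/PS1 than in WT by log2 fold change, of which 1 passed the test. All 8 neuronal markers were lower as well, of which 0 passed. Their sum in WT 1 and WT 2 (1457 and 1713 CPM) was nevertheless below that of every APP/PS1 library (1903 to 2291 CPM). WT 3 stood apart with the highest neuronal sum and the lowest endothelial sum (472.7 CPM, beside 919.5 to 1303 in the others), and APP/PS1 3 stood apart with a neutrophil sum of 93.2 CPM, beside 2.95 to 17.0. Of the markers listed, Plac8, a monocyte gene, was at 0 in 2 APP/PS1+N-AS libraries and no other was at 0 in any library. Although the methods state that male mice were used, Xist, transcribed from the inactive X chromosome, was covered by 29 to 37 reads in WT 1 to 3 and in APP/PS1+N-AS 3, and by 5253 to 11188 in the 4 APP/PS1 libraries and the other two of APP/PS1+N-AS. The Y-linked Ddx3y ran from 590 to 1431 reads in the former and from 7 to 359 in the latter. In the comparison of APP/PS1 with WT, genotype and sex-linked expression therefore cannot be told apart. The comparisons with APP/PS1+N-AS are unbalanced too, since only APP/PS1+N-AS 3 of that group had few Xist reads. Whether female mice were pooled or labels exchanged cannot be told from the files, so each group is named as its libraries are labelled.

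APP/PS1 was compared with WT, a difference in genotype that goes together with sex-linked expression here. At an adjusted p under 0.05 in edgeR's quasi-likelihood test, 6 of the 10 members were higher in APP/PS1 and 0 were lower. Over all genes tested, 2.67% were called higher and 0.796% lower. At an unadjusted p under 0.05 the members numbered 8, beside 17.2% of all genes, and in 8 members the libraries of the groups did not overlap, beside 14.9% of all genes. The median log2 fold change was 1.06 over the members and −0.07 over all genes. The count of 6 fell to 3 (Nlrp3, Pycard and Casp4) without WT 2 and to 4 without APP/PS1 3. Calls over all genes fell too, to 1.89% without WT 2 and 1.61% without APP/PS1 3, both directions together. With DESeq2, 7 members were called, beside 7.53% of the genes it tested.

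**Figure D1:**
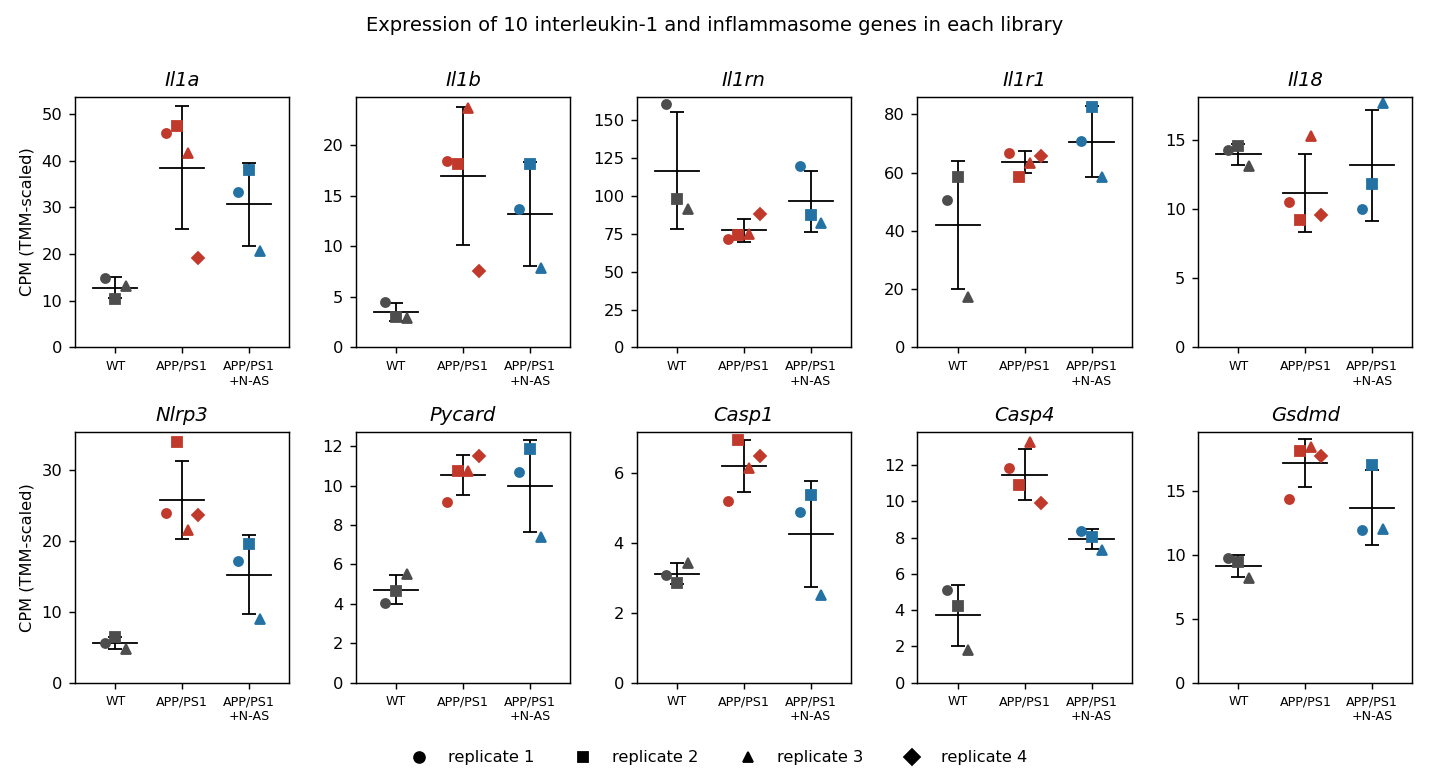
CPM (TMM-scaled; vertical axis) of each of the 10 genes in each library of WT (grey), APP/PS1 (red) and APP/PS1+N-AS (blue); symbols give the replicate number, horizontal bars the mean and vertical bars the SD. Il1a, Il1b, Nlrp3, Pycard, Casp1, Casp4 and Gsdmd show the 4 red points above the 3 grey points, and Il1rn shows them below.

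Il1a, the membrane-associated agonist, stood at 14.9, 10.5 and 13.1 CPM in WT 1 to 3, at 45.9, 47.4, 41.7 and 19.2 CPM in APP/PS1 1 to 4, and at 33.3, 38.0 and 20.7 CPM in APP/PS1+N-AS 1 to 3. Every APP/PS1 library was above every WT library, with APP/PS1 4 far below its group mates. The difference was 1.59 on the log2 scale, with a standard error of 0.32 (adjusted p = 0.0220 in edgeR). The call did not survive leaving out WT 1 (adjusted p = 0.0614), WT 2 (0.0862), APP/PS1 2 (0.0571) or APP/PS1 3 (0.0621).

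Il1b, the agonist that needs cleavage, stood at 4.52, 3.03 and 2.94 CPM in WT, at 18.5, 18.2, 23.7 and 7.52 CPM in APP/PS1, and at 13.7, 18.1 and 7.83 CPM in APP/PS1+N-AS. Again APP/PS1 4 was the lowest of its group and still above all WT libraries, and the highest value belonged to APP/PS1 3, the library with the raised neutrophil markers, whose part in this value was not tested. At 2.30 on the log2 scale with a standard error of 0.41, its fold change was the largest among the members (adjusted p = 0.0135 in edgeR). It was 2.10 without APP/PS1 3 (adjusted p = 0.0388), and 2.22 without WT 2, where the adjusted p of 0.0588 missed the threshold. The WT values rest on 38 to 61 reads a library.

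Il1rn, the antagonist, moved the other way. Its level was 161.2, 97.8 and 91.8 CPM in WT, 71.7, 74.5, 74.9 and 88.4 CPM in APP/PS1, and 119.6, 87.6 and 82.4 CPM in APP/PS1+N-AS. All APP/PS1 libraries lay below all WT libraries, but the gap between WT 3 and APP/PS1 4 was small and WT 1 stood far above the rest. WT 1 had the fewest reads, 8805804, and also the fewest genes at 0, 566, beside 837 to 3985 in the other libraries. The part of this in its Il1rn level was not tested. At −0.59 on the log2 scale with a standard error of 0.21, the gene did not pass the test (adjusted p = 0.173 in edgeR), and without WT 1 the log2 fold change was −0.29.

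The balance of agonist and antagonist transcripts can be read within each library. In WT there were 35.7, 32.2 and 31.2 Il1rn reads for each Il1b read. APP/PS1 1 to 4 had 3.88, 4.10, 3.16 and 11.8, and APP/PS1+N-AS 1 to 3 had 8.73, 4.83 and 10.5. Neither of these groups overlapped WT, and they overlapped each other. The log2 ratio of Il1b to Il1rn was −4.99 ± 0.11 for WT, −2.29 ± 0.84 for APP/PS1 and −2.92 ± 0.58 for APP/PS1+N-AS (SD, n = 3, 4 and 3). The difference between APP/PS1 and WT, 2.70 on the log2 scale, ran from 2.49 to 3.11 with each library left out in turn. The corresponding log2 ratio of Il1a to Il1rn was −3.14 ± 0.32 in WT, −1.08 ± 0.75 in APP/PS1 and −1.68 ± 0.42 in APP/PS1+N-AS (SD, n = 3, 4 and 3). Ratios within a library do not depend on the scaling between libraries, and they were not tested, since both genes had been tested singly. They can still depend on the mix of cells. Relative to the mean log2 CPM of the microglial markers, Il1rn differed by −1.92 between APP/PS1 and WT, beside a median of −1.42 over all genes. Il1b differed by 0.78 on that scale, with overlap. The part of the cell mix in these ratios was not tested.

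**Figure D2:**
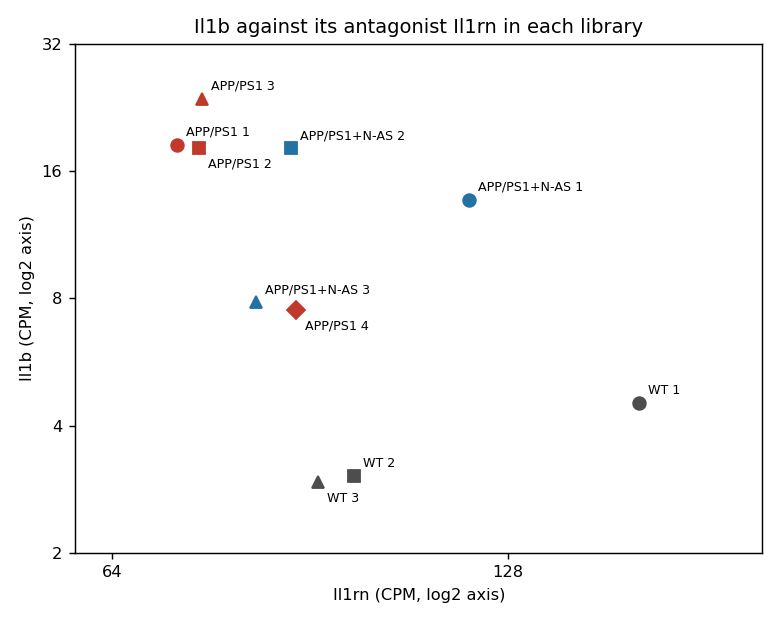
Il1b (vertical axis) against Il1rn (horizontal axis), both in CPM on log2 axes, with 1 point per library, coloured by group (WT grey, APP/PS1 red, APP/PS1+N-AS blue). The WT libraries lie at the bottom with 2.94 to 4.52 CPM of Il1b; APP/PS1 4 and APP/PS1+N-AS 3 lie close together, between WT and the other injected and APP/PS1 libraries.

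Il1r1, the signalling receptor, stood at 50.5, 58.6 and 17.2 CPM in WT, at 66.9, 58.4, 63.3 and 65.7 CPM in APP/PS1, and at 70.9, 82.7 and 58.4 CPM in APP/PS1+N-AS. The spread within WT came from WT 3, the library whose endothelial markers summed to 472.7 CPM instead of 1069 and 1303; brain endothelial cells are known to express this receptor, and the part of those cells in its level was not tested. The log2 fold change between APP/PS1 and WT was 0.60 (95% interval −0.12 to 1.32, adjusted p = 0.389 in edgeR), and 0.23 without WT 3. Over the 10 libraries, the genes whose log2 CPM followed Il1r1 most closely were Xdh (r = 0.976) and Ch25h (r = 0.970), out of 15544 candidates; these points share the low value of WT 3.

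Il18, the other cytokine that caspase-1 activates, differed little. It stood at 14.3, 14.6 and 13.1 CPM in WT, at 10.5, 9.17, 15.3 and 9.57 CPM in APP/PS1, and at 10.01, 11.8 and 17.7 CPM in APP/PS1+N-AS. APP/PS1 3 exceeded every WT library while the other APP/PS1 libraries were below them. The log2 fold change was −0.33 (95% interval −0.83 to 0.18, adjusted p = 0.526 in edgeR).

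Nlrp3, the inflammasome sensor, gave the lowest p of the 10 members in this comparison. It stood at 5.59, 6.44 and 4.77 CPM in WT, at 24.0, 34.0, 21.5 and 23.7 CPM in APP/PS1, and at 17.3, 19.6 and 8.94 CPM in APP/PS1+N-AS. Here APP/PS1 4 was not set apart from its group, unlike in Il1a and Il1b. Nlrp3 rose by 2.20 on the log2 scale with a standard error of 0.28 (adjusted p = 0.00229 in edgeR), and with any library of either group left out it stayed between 2.04 and 2.33 with adjusted p of at most 0.0141.

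Pycard, which encodes the adaptor ASC, stood at 4.04, 4.64 and 5.50 CPM in WT, at 9.15, 10.7, 10.7 and 11.5 CPM in APP/PS1, and at 10.7, 11.9 and 7.39 CPM in APP/PS1+N-AS. The APP/PS1 libraries formed a tight group at 2.21 times the WT level (1.14 on the log2 scale, standard error 0.20, adjusted p = 0.0114 in edgeR).

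Among the proteases, Casp1 stood at 3.09, 2.85 and 3.42 CPM in WT, at 5.18, 6.94, 6.15 and 6.48 CPM in APP/PS1, and at 4.88, 5.35 and 2.51 CPM in APP/PS1+N-AS. No APP/PS1 library overlapped WT, but the log2 fold change of 0.98 (standard error 0.27) had an adjusted p of 0.0734 in edgeR and did not pass; DESeq2 gave 0.99 with an adjusted p of 0.0194. Its counts were low, 26 to 71 reads in WT. Casp4 stood at 5.11, 4.21 and 1.83 CPM in WT, at 11.8, 10.9, 13.3 and 9.90 CPM in APP/PS1, and at 8.37, 8.06 and 7.31 CPM in APP/PS1+N-AS, with WT 3 again the lowest. It rose by 1.66 on the log2 scale with a standard error of 0.29 (adjusted p = 0.0122 in edgeR). Reads of Casp1 and Casp4, which are paralogs, could be shared by the counting.

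Gsdmd, the pore-forming substrate, stood at 9.75, 9.47 and 8.20 CPM in WT, at 14.4, 18.2, 18.5 and 17.8 CPM in APP/PS1, and at 11.99, 17.1 and 12.04 CPM in APP/PS1+N-AS. The rise of 0.92 on the log2 scale, with a standard error of 0.17 (adjusted p = 0.0161 in edgeR), was the smallest of the 6 that passed. It missed the threshold without WT 2 (adjusted p = 0.0504), APP/PS1 3 (0.0513) or APP/PS1 4 (0.0510).

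The labels number the libraries 1 to 10. Replicates 1 and 2 carry the numbers up to 6 and the later replicates the numbers from 7. Libraries within a number set differed less than libraries across sets in WT, APP/PS1 and APP/PS1+N-AS alike. Between APP/PS1 and WT, the log2 difference of Nlrp3 was 2.23 within numbers 1 to 6 (2 libraries each) and 2.21 within 7 to 10 (2 against 1), and that of Il1b was 2.27 and 2.14. Casp4 was 1.27 in the first set and 2.56 in the second, where WT 3 is the only WT library, and Il1a was 1.89 and 1.10. All 6 members called were higher in both sets.

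Per kilobase of exon, which allows comparison between genes, the order of the members differed between groups. In WT, Il1rn had the highest level, 21.1 ± 6.95 RPKM (SD, n = 3), followed by Il18 with 13.6 ± 0.74, Il1r1 with 6.62 ± 3.45 and Il1a with 6.49 ± 1.12, of which the last 2 overlapped. Nlrp3 (1.38 ± 0.21), Pycard (1.24 ± 0.19) and Casp4 (1.00 ± 0.46) formed the bottom and overlapped each other. In APP/PS1, Il1a led with 19.5 ± 6.66 RPKM (SD, n = 4), and Il1rn followed with 14.0 ± 1.35; their ranges overlapped through APP/PS1 4. Il1b stood at 1.83 ± 0.46 RPKM among WT libraries and 8.90 ± 3.56 RPKM among APP/PS1 libraries. The exon lengths came from GENCODE M21 and need not be those of the authors' counting.

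In bulk RNA a change in the number of cells and a change in RNA per cell cannot be told apart, and microglial markers themselves were higher in APP/PS1: 14 of 14 had a positive log2 fold change, 11 of them called. Their mean log2 CPM differed by 1.37 between APP/PS1 and WT. Expressed relative to that mean in each library, the median over all genes shifted to −1.42, and the members spread on both sides of 0 with a median of −0.32. Nlrp3 stayed above WT by 0.80 without overlap, 1 of the 10 members, beside 0.422% of all genes; Il1b was 0.78 above WT, Casp4 0.34 and Il1a 0.14, each with overlap. Pycard turned to −0.22 and Gsdmd to −0.47, so their calls as higher do not hold on this scale. Il1rn (−1.92), Il18 (−1.72) and Casp1 (−0.41) were lower without overlap, 3 of 10 members, beside 78.8% of all genes. On this scale 8 of 10 members lay above the median of all genes, all but Il1rn and Il18. Subtracting the marker mean shifts every gene in a library alike. The same members therefore lie above the median on the CPM scale, and this adds nothing on the cell mix.

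**Figure D3:**
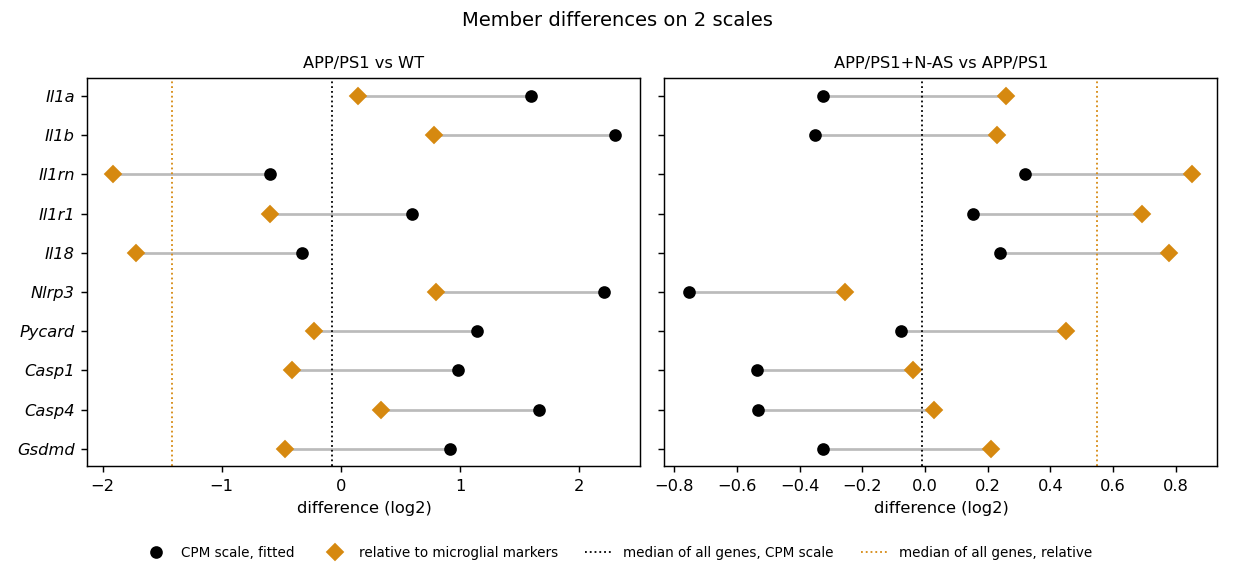
Log2 difference (horizontal axis) of each member for APP/PS1 vs WT (left) and APP/PS1+N-AS vs APP/PS1 (right), as the fitted log2 fold change on the CPM scale (black circles) and relative to the mean of 14 microglial markers in the same library (orange diamonds); dotted lines mark the median of all genes tested on each scale. In the left panel every member moves to the left on the relative scale, Il1b and Nlrp3 remaining the highest; in the right panel every member moves to the right.

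The comparison of APP/PS1+N-AS with APP/PS1 asks whether N-AS altered these genes, against mice that the study describes as given vehicle. None of the 10 members was called (0 genes of all tested were, or 0%). At an unadjusted p under 0.05 there was 1 member, Nlrp3, beside 8.83% of all genes, and DESeq2 also called 0 members, beside 0.448% of its genes. The median log2 fold change was −0.33 over the members and −0.01 over all genes, with 7 of 10 negative. In 2 members, Nlrp3 and Casp4, every APP/PS1+N-AS library was below every APP/PS1 library, beside 12.7% of all genes whose groups did not overlap in either direction.

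Nlrp3 was 15.3 ± 5.59 CPM (SD, n = 3) after N-AS and 25.8 ± 5.56 CPM (SD, n = 4) without it, a log2 fold change of −0.75 with a 95% interval of −1.32 to −0.18 (adjusted p = 0.509 in edgeR). APP/PS1+N-AS 3, the injected library with few Xist reads, was the lowest, and without it the log2 fold change was −0.48 (adjusted p = 0.724). Casp4 was 7.91 ± 0.54 CPM against 11.5 ± 1.42 CPM (SD, n = 3 and 4), a log2 fold change of −0.53 with an interval of −1.13 to 0.06, and −0.47 without APP/PS1+N-AS 3. Casp1 had a log2 fold change of −0.54 (interval −1.10 to 0.03), which was −0.26 without that library, where it stood below all WT libraries. Gsdmd had −0.33 (interval −0.69 to 0.04).

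The cytokine genes differed less, with wide intervals. Il1a had a log2 fold change of −0.33 (95% interval −0.99 to 0.34) and Il1b one of −0.35 (interval −1.16 to 0.46), which became −0.10 and −0.08 without APP/PS1+N-AS 3. For Pycard the value was −0.08 (interval −0.49 to 0.34), for Il1r1 0.15 (interval −0.55 to 0.85), for Il18 0.24 (interval −0.26 to 0.74) and for Il1rn 0.32 (interval −0.14 to 0.78). These intervals leave room for changes of a size that the data could not resolve. Within library numbers 1 to 6 the Nlrp3 difference was −0.63, and within 7 to 10, where the lone injected library is APP/PS1+N-AS 3, it was −1.32.

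Microglial markers were lower after N-AS in 14 of 14 genes by log2 fold change, 0 of them called, and their mean log2 CPM differed by −0.55. Relative to that mean, the median over all genes was 0.55 and over the members 0.24, and 8 of 10 members were positive. Il1rn, Il1r1, Il18 and Pycard were higher without overlap on this scale, 4 of 10 members, beside 51.9% of all genes, and 0 members were lower without overlap, beside 0.326%. Nlrp3 kept a negative difference of −0.26, with overlap, and Casp1 one of −0.04.

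**Figure D4:**
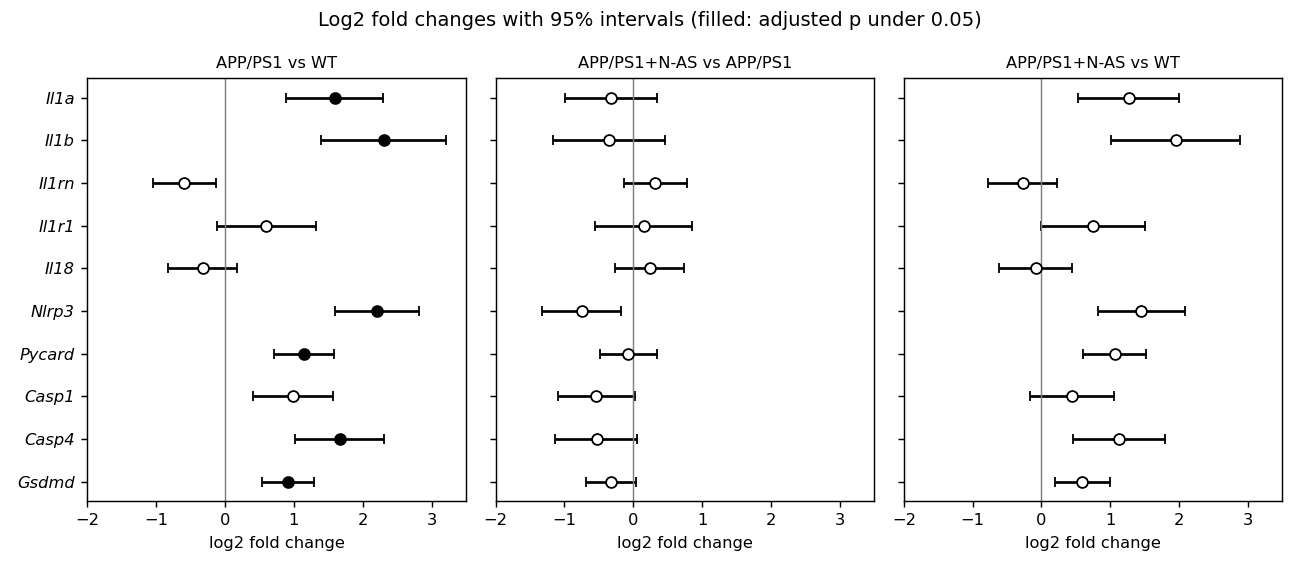
Log2 fold change (horizontal axis) of the 10 members with 95% intervals from edgeR's quasi-likelihood fit in the 3 comparisons; filled points passed an adjusted p of 0.05 over all genes. The 6 filled points are all in APP/PS1 vs WT; the intervals of Il1a, Il1b, Nlrp3, Pycard, Casp4 and Gsdmd in APP/PS1+N-AS vs WT also lie above 0 without passing the adjusted threshold.

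The third comparison sets APP/PS1+N-AS against WT; it shares its libraries with the other two, so the 3 comparisons are not independent. Again 0 of the 10 members were called, beside 0.187% of all genes. At an unadjusted p under 0.05, 6 members were higher (Il1a, Il1b, Nlrp3, Pycard, Casp4 and Gsdmd) and 0 lower, beside 6.73% of all genes, and the libraries of these 6 did not overlap WT, beside 8.81%. The median log2 fold change was 0.91 over the members and −0.04 over all genes. Il1b was 13.2 ± 5.17 CPM after N-AS and 3.497 ± 0.884 CPM in WT (SD, n = 3 each), a log2 fold change of 1.95 with a 95% interval of 1.01 to 2.89 (adjusted p = 0.163 in edgeR). Nlrp3 had 1.45 (interval 0.82 to 2.09, adjusted p = 0.110), Pycard 1.07 (interval 0.61 to 1.52, adjusted p = 0.0980), Il1a 1.27 (interval 0.53 to 2.00), Casp4 1.13 (interval 0.46 to 1.80) and Gsdmd 0.59 (interval 0.20 to 0.99).

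The count of calls in this comparison depended on the tool and on APP/PS1+N-AS 3. DESeq2 called 5 members, all but Gsdmd of those 6, beside 0.992% of its genes. Without APP/PS1+N-AS 3, edgeR called Il1b (log2 fold change 2.25, adjusted p = 0.0472), Nlrp3 (1.74, adjusted p = 0.00791) and Pycard (1.27, adjusted p = 0.0166), beside 0.583% of genes. Taken alone against the WT libraries, with few Xist reads in all of them, APP/PS1+N-AS 3 was higher in those 6 members. The log2 differences were 1.16 in Il1b, 1.07 in Casp4, 0.70 in Il1a, 0.67 in Nlrp3, 0.64 in Pycard and 0.40 in Gsdmd. Casp1 (2.51 CPM, WT 2.85 to 3.42) and Il1rn (82.4 CPM, WT 91.8 to 161.2) were below all WT libraries. Il18 (17.7 CPM, WT 13.1 to 14.6) was above them, and Il1r1 (58.4 CPM, WT 17.2 to 58.6) lay among them. This is 1 library, with no test.

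A wider list of 61 ligands, receptors, signalling proteins, sensors and effectors of the same pathways, which holds the members, had 57 genes tested; Il1f6, Il1f8, Il1f5 and Il1f10 had too few reads. In APP/PS1 vs WT, 12 were called, 10 higher and 2 lower, and without the members 6 of 47 were called, 4 higher and 2 lower, beside 2.67% of all genes called higher and 0.796% called lower. The median log2 fold change of these 47 was 0.23, beside −0.07 over all genes. With the members included, called genes were found in each role. They were 3 of 7 ligands and antagonists, 1 of 10 receptors and 1 of 16 signalling genes. The other roles had 4 of 13 sensors and 3 of 11 genes of assembly, proteases and pores. Without the members, the called genes were Il33 and Il1rap, both lower, and Tnfaip3, Naip2, Naip5 and Naip6, all higher. The called genes of assembly, proteases and pores were all members.

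Tnfaip3, an NF-κB target whose product A20 restrains the same pathway, was 33.5, 45.5 and 27.3 CPM in WT, 162.2, 173.5, 123.4 and 90.0 CPM in APP/PS1 and 95.1, 105.8 and 51.4 CPM in APP/PS1+N-AS. Every APP/PS1 library was above every WT library, by 1.95 on the log2 scale with a standard error of 0.31 (adjusted p = 0.00698 in edgeR). Naip2, Naip5 and Naip6, receptors that pass bacterial ligands to the NLRC4 inflammasome, rose by 1.56, 1.24 and 1.33 on the log2 scale (adjusted p = 0.0120, 0.00500 and 0.0236 in edgeR). Naip2 missed the threshold without WT 2 (0.0511), and Naip6 without WT 1, WT 2, APP/PS1 3 or APP/PS1 4 (0.0642 to 0.0886). Relative to the microglial markers, Naip5 (−0.13) and Naip6 (−0.07) turned negative and Naip2 (0.19) stayed positive, all with overlap, and Tnfaip3 was at 0.57 with overlap. The 3 Naip genes are near-identical paralogs, so the split of reads among them is uncertain, and their partner Nlrc4, named after its value was seen, was 1.31 CPM in APP/PS1 and 1.71 CPM in WT with an adjusted p of 0.797.

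Il33, an alarmin of the interleukin-1 family made mainly by glia in the brain, fell by 1.31 on the log2 scale (adjusted p = 0.0444 in edgeR), from 80.2, 82.5 and 31.8 CPM in WT to 27.5, 36.6, 21.0 and 19.7 CPM in APP/PS1. WT 3 overlapped the APP/PS1 libraries. Il1rap, the accessory chain that Il1r1 needs for signalling, fell by 0.74 (adjusted p = 0.0254 in edgeR), from 49.9, 50.0 and 38.0 CPM to 28.3, 34.0, 24.4 and 23.6 CPM, without overlap. Both calls missed the threshold in a fit of the 2 groups alone (adjusted p = 0.113 for Il33 and 0.0813 for Il1rap), and with any 1 of WT 1, WT 2, APP/PS1 1, APP/PS1 3 or APP/PS1 4 left out (0.0823 to 0.141 for Il33, 0.0531 to 0.0930 for Il1rap). They are the only called genes of the list that were lower. All 8 oligodendrocyte markers and all 8 neuronal markers also had a negative log2 fold change in this comparison. The neuronal sum was high only in WT 3 (4899 CPM). WT 1 and WT 2 had 1457 and 1713 CPM, below the 1903 to 2291 CPM of APP/PS1. The part of those cells was not tested.

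**Figure D5:**
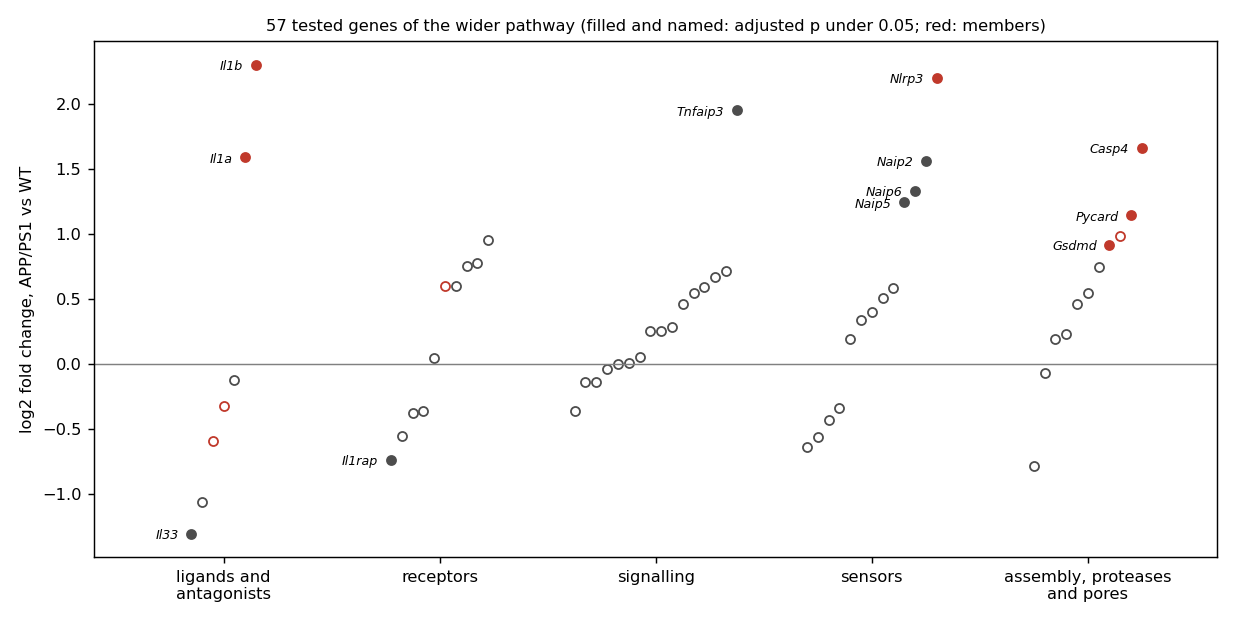
Log2 fold change (vertical axis) of the 57 tested genes of the wider list in APP/PS1 vs WT, by role, each point a gene; filled and named points passed an adjusted p of 0.05, and red marks the 10 members. Filled points lie from −1.31 (Il33) to 2.30 (Il1b), with 10 above 0 and 2 below.

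Between APP/PS1+N-AS and APP/PS1, 0 of the 57 were called by edgeR, 5 had an unadjusted p under 0.05, which is 8.77% beside 8.83% of all genes, and 41 had a negative log2 fold change. Microglial markers were lower in the same comparison, and relative to them 50 of the 57 were positive and 7 negative. The median on that scale was 0.34 over the 57 and 0.55 over all genes. The 3 lowest p belonged to Nlrp3, given above, to Naip5 (log2 fold change −0.52, adjusted p = 0.509 in edgeR) and to Irak4, a kinase below the receptor (−0.51, adjusted p = 0.526). Against WT, 0 of 57 were called after N-AS, beside 0.187% of all genes, and 15 had an unadjusted p under 0.05, 12 of them higher, which is 26.3% beside 6.73%; the 3 lowest p were those of Pycard, Nlrp3 and Il1b.

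Across the 10 libraries, log2 CPM of Il1a and Il1b followed each other with Pearson's r = 0.979, the closest pairing of either gene among the members, and after Il1b the gene nearest to Il1a was Tnf (r = 0.967). For Nlrp3 the nearest genes were Ccl4, a chemokine (r = 0.987), and Cd14, a co-receptor for lipopolysaccharide (r = 0.986). Pycard was nearest to Serpina3n (r = 0.981) and Plac9b (r = 0.974), Casp4 to Ripk1 (r = 0.975) and Lilr4b (r = 0.974), Casp1 to Tmem86a (r = 0.984) and Sipa1l2 (r = 0.964), Gsdmd to Cmtm6 (r = 0.973) and Rpl10a (r = 0.969). Il1b was next nearest to Ckap2l (r = 0.976). Il1rn, in contrast, was nearest to Stx16 (r = 0.988) and Gm8369 (r = 0.982), and Il18 to Lyrm1 (r = 0.962) and Htra1 (r = 0.937). Il1rn had r of −0.52 with Il1a and −0.50 with Il1b, and Il18 had −0.75 with Casp1. These are descriptions over 10 libraries that share groups, pools and number sets.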

How the data were processed

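Cortex was dissociated with papain, its cells were enriched on a density gradient, ribosomal RNA was removed, and stranded libraries were sequenced as pairs of 100-base reads. Per the labels and the methods, the authors aligned the reads to mm10 with TopHat, and the deposited files hold raw counts for each gene symbol without normalization; the versions, the annotation and the strand setting of the counting are not given in the sources used here. Each file listed 24481 lines; 103 lines that share 43 symbols were summed.

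Counts were filtered with filterByExpr, scaled by TMM and fitted in edgeR 4.0.16 (R 4.3.3) with glmQLFit and glmQLFTest in 1 model of 3 groups and 10 libraries. P-values were adjusted by Benjamini-Hochberg over all 18727 genes at 0.05. Standard errors and 95% intervals came from the same fit, with a prior count of 2 for log2 CPM. PCR copies were not marked, so counting error alone is understated, and nothing says whether libraries came from separate preparations. Relative values subtract the mean log2 CPM of 14 microglial markers in the library. The genes most like each member were the 2 with the highest Pearson r among tested genes of mean log2 CPM of at least 1. In the wider list, called genes are named and, where none was called, the 3 with the lowest p.

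The members and lists were chosen with earlier results of these data known. In APP/PS1+N-AS vs APP/PS1, libraries with the same label number deviated together (r = 0.278, 0.142 and 0.309), which did not hold in the other comparisons. Pairs of that comparison with different label numbers but in the same number set did so too (r = 0.197, 0.173 and 0.32). Pairing by label number is therefore not shown. Alternatives were total counts, no filter, DESeq2 1.42.0, quantile normalization with voom (limma 3.58.1), the replicate block, the number set as covariate, a fit of 2 groups and leaving out each library. Differences within number sets were added after seeing the data. The fit was also run on simulated counts, with the outcome not reported here, and no statement above rests on that run.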

Additional observations from a re-analysis of the deposited data

Results flagged for a closer look

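In the 19 groups of 4 APP/PS1 values examined (members, named genes of the wider list and both ratios), 2 held 1 library set far from the other three; chance marks about 1 group in 20. Gsdmd in APP/PS1 1 was 14.4 CPM, while the other APP/PS1 libraries had 17.8 to 18.5 CPM; the gap was only just wide enough. The log2 ratio of Il1a to Il1rn in APP/PS1 4 was −2.20, while the others lay between −0.84 and −0.64, and this library had the lowest Il1a and the highest Il1rn of its group.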

How the results depend on the processing

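Groups had 3 or 4 libraries, and the lowest counts were those of Casp1 in WT, 26 to 71 reads. In APP/PS1 vs WT, 6 members were called under total counts, voom, no filter, the number set and a fit of 2 groups, 7 by DESeq2 and 4 under the replicate block, where Pycard (adjusted p = 0.0595) and Gsdmd (0.0509) missed the threshold. Leaving out each library gave 3 to 6 members and 5 to 13 genes of the wider list, the lowest of both without WT 2. Without APP/PS1 3 the wider list had 7. The share called over all genes ran from 1.61% (without APP/PS1 3) to 4.83% (without WT 3). The replicate block left 6 genes of the wider list of 12, and the number set gave 17 and DESeq2 18. The cause was not tested. In APP/PS1+N-AS vs APP/PS1, 0 members and 0 genes of the wider list were called under every alternative, the replicate block included. In APP/PS1+N-AS vs WT, DESeq2 called 5 members and 7 of the wider list. The number set as covariate gave 1 (Nlrp3) and 2 (with Tnfaip3). Leaving out each library gave 0 to 3 members and 0 to 3 of the wider list, the highest without APP/PS1+N-AS 3. The share over all genes then ran from 0.00522% (without WT 2) to 0.583% (without APP/PS1+N-AS 3). Under the block, Naip2 (0.0603), Naip6 (0.0965), Il33 (0.0704) and Il1rap (0.0585) also missed the threshold, and no other named call changed; in both comparisons with WT, same-numbered libraries did not all deviate together.

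Some directions turned. After N-AS against WT, with each library left out, Il1rn ran from −0.45 to 0.03 (positive without WT 1), Il18 from −0.33 to 0.08 (positive without APP/PS1+N-AS 1) and Irak4 from −0.02 to 0.34 (negative without WT 3). Against APP/PS1, Il18 ran from −0.02 to 0.43 and Pycard from −0.22 to 0.11, both turning without APP/PS1+N-AS 3. Relative to microglial markers, Pycard (−0.22), Gsdmd (−0.47), Casp1 (−0.41) and Il1r1 (−0.59) turned in APP/PS1 vs WT, the first pair having been called as higher. On that scale Il1a (0.26), Il1b (0.23), Pycard (0.45), Casp4 (0.03) and Gsdmd (0.21) turned in APP/PS1+N-AS vs APP/PS1.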
